A study of Mus musculus with 4 samples.

Results

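The integrated stress response and the unfolded protein response were followed through 35 genes in cultures of CT26, a colon carcinoma line of the mouse. The genes were taken from a list of names, set up with earlier results of these arrays known, by a rule that uses no measured value. A gene was read from a probe set (the group of array probes summarised into 1 value) annotated with that symbol alone, and from the one with the highest mean where there were several. On this rule 34 of the 35 listed genes were measured, out of 22180 named genes in all, and 21 of them belong to the integrated stress response and 13 to the unfolded protein response. Pdia4, a disulphide isomerase of the endoplasmic reticulum, was left out because its 1 probe set also carries a second symbol.

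The integrated stress response begins when one of several kinases phosphorylates the translation factor eIF2. Most protein synthesis then slows while the transcription factor ATF4 is translated, and ATF4 switches on genes for amino acid synthesis, amino acid uptake and, if stress lasts, cell death. The unfolded protein response is set off by misfolded protein in the endoplasmic reticulum through the sensors PERK, IRE1 and ATF6, and it raises the chaperones and the degradation machinery of that compartment. PERK is also an eIF2 kinase and joins the responses. ATF4 is governed largely by translation and Xbp1 by splicing of its transcript. A gene-level array reads neither step.

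Of the 4 cultures, each on 1 Affymetrix Mouse Gene 2.0 ST array, 1 received the solvent DMSO for 24 h and 1 received 5 µM Senexin B for 24 h. Senexin B inhibits CDK8 and CDK19, the alternative kinases of the Mediator complex. The other cultures were the line labelled CT26-pLKO.1, which carries the lentiviral vector for short hairpin RNAs, and the line labelled CT26-shCDK8. The labels do not say how many hairpins or clones were used, or that the vector lines received DMSO. With 1 array per group nothing could be tested. Every value below is a log2 expression level or a difference of 2 such levels, and levels of different genes are not comparable because their probes differ.

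The line and its labels were checked first. Cdk8 stood at 10.69 with DMSO, 10.58 with Senexin B, 10.79 in pLKO.1 and 9.07 in shCDK8. Genes whose highest array value was at least 5.98, the 40th percentile over named genes and arrays, are called expressed, and there were 14272 of them. Of 8 intestinal epithelial markers 5 reached this limit, among them Krt8 (7.12 to 7.25) and Cdh1 (6.50 to 6.74), whereas Epcam (4.38 to 4.64), Krt19 and Vil1 did not. None of 3 measured immune markers reached it, while all 3 endothelial and 2 of 3 liver markers did. The mean of the endothelial markers lay between 5.73 and 6.10 and that of the liver markers between 5.80 and 6.03 on the 4 arrays, close to the limit. Krt20, an intestinal keratin, stood at 8.72 with DMSO, 8.62 with Senexin B, 8.03 in pLKO.1 and 6.59 in shCDK8, and its bearing on the results below was not tested. All 34 measured stress genes were above the limit on all 4 arrays. In such bulk RNA fewer cells making a transcript and less transcript per cell cannot be told apart.

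The promoters of these genes were searched for the elements through which both responses are known to act. The windows were those of RefSeq (GRCm38.p6), from 250 bases before to 50 bases after the transcription start, and 31 of the 35 listed genes had one. Both strands were read for TGATGNAA, the core of the C/EBP-ATF response element (CARE) bound by ATF4 with C/EBP partners. The ER stress element (ERSE), bound by ATF6 with NF-Y, was searched as CCAAT and CCACG with any 9 bases between them, and its second form (ERSE-II) as ATTGG and CCACG with any 1 base between them. The unfolded protein response element (UPRE) was searched as TGACGTGG. The CARE core lay in the windows of 7 listed genes, namely Asns, Chac1, Herpud1, Nupr1, Pck2, Slc7a11 and Trib3, and in 3.97% of all 32851 windows. ERSE lay in those of 5, namely Calr, Creld2, Hsp90b1, Hspa5 and Pdia6, and in 0.119% of all windows. ERSE-II lay in that of Herpud1 and in 0.0365% of all windows. UPRE was found in 0.676% of all windows and in none of these genes. No matches overlapped in these genes, although the reverse complement of UPRE shares the letters CCACG with both forms of ERSE. Shown here are the stretches up to the base before the start for the 5 genes with a match there that lay farthest apart in either comparison. They run 5′ to 3′ on the strand of the gene, with the matches in capitals:
Slc7a11 (chr3:50443614-50443733, minus strand): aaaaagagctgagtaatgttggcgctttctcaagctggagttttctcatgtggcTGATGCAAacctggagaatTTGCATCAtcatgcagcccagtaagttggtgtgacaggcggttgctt
Nupr1 (chr7:126625471-126625600, minus strand): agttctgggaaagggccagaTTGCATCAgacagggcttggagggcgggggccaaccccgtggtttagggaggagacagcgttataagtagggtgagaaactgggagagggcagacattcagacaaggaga
Herpud1 (chr8:94386297-94386428, plus strand): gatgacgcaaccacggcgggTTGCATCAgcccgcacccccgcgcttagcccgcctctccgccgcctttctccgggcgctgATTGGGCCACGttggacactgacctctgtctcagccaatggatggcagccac
Asns (chr6:7693210-7693329, minus strand): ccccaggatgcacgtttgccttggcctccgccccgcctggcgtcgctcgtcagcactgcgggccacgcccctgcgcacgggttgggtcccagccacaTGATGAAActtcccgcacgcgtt
Pck2 (chr14:55540143-55540265, plus strand): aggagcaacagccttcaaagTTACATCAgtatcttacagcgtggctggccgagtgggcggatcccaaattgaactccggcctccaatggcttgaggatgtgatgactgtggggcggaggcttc
Slc7a11 has a CARE core on each strand before its start, and Herpud1 has a CARE core and the ERSE-II form. The window of Slc7a11 belongs to a start inside the annotated gene, which also has longer transcripts. Which of these sites is used in CT26 was not measured.

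The integrated stress response genes were lower in the hairpin line than in the vector line. Of 21 measured genes 16 lay below 0 in shCDK8 minus pLKO.1, where 49.1% of all expressed genes did, and their median difference was -0.25 beside 0.0038 for all expressed genes. The differences were small: none of the 21 was at least 1.5-fold apart in either direction, against 1.67% of expressed genes higher and 1.85% lower. At a lower threshold of 0.32 on the log2 scale, 7 were lower, namely Slc7a5, Mthfd2, Atf5, Nupr1, Ddit3, Asns and Psat1, beside 7.68% of expressed genes, and Slc7a11 alone was higher, beside 8.81%. None was 2-fold apart, beside 0.196% higher and 0.322% lower. The same 16 genes were also lower in shCDK8 than in DMSO, so that they were below both controls, which was the case for 38.4% of expressed genes.

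**Figure D1:**
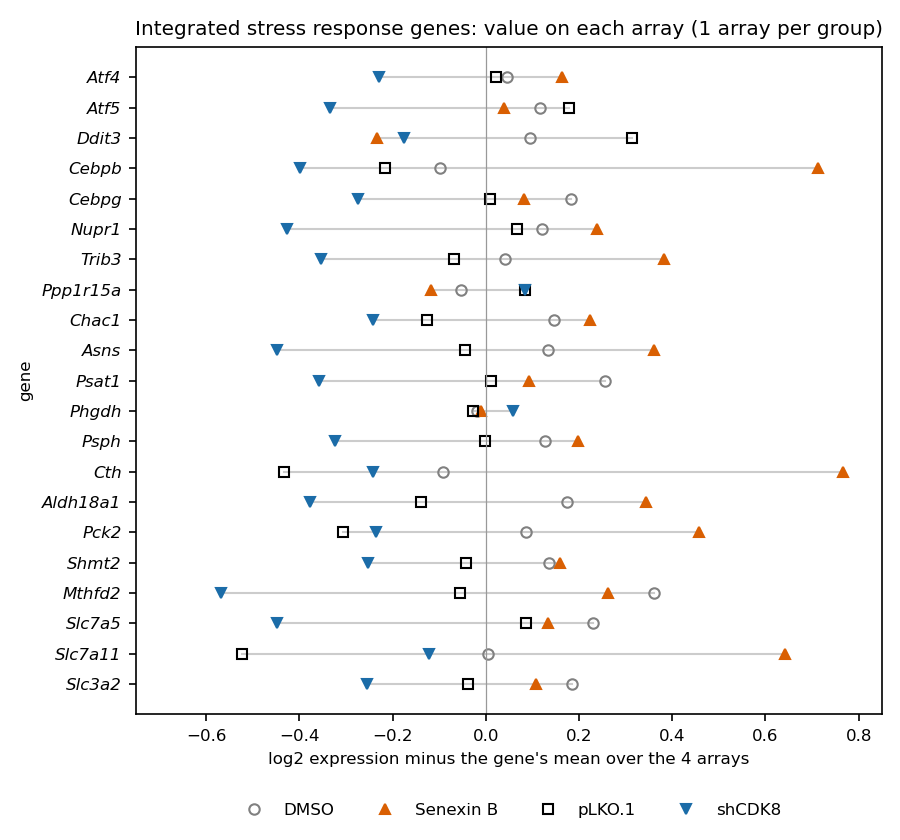
Each of the 21 integrated stress response genes on the 4 arrays. The horizontal axis is the log2 expression on an array minus the mean of that gene over the 4 arrays, each symbol is 1 array and the grey line spans the range. The shCDK8 array was the lowest for 15 genes, beside 28.7% of expressed genes, and the Senexin B array the highest for 12, beside 26.9%.

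With Senexin B the same genes went both ways against DMSO, while against pLKO.1 18 of 21 were above 0, beside 49.8% of expressed genes, and 3 below, beside 50.2%. Cebpb, Cth and Slc7a11 were at least 1.5-fold higher than with DMSO, 3 of 21 beside 2.35% of expressed genes, and none was 1.5-fold lower, beside 1.65%. At the threshold of 0.32 Trib3 and Pck2 joined them, making 5 beside 9.21%, and Ddit3 was lower, beside 8.99%. None reached 2-fold, beside 0.687% higher and 0.252% lower. The median of the 21 was 0.07, beside -0.028 for all expressed genes, and 13 lay above 0, where 44.8% of expressed genes did. The SD over the 21 genes was 0.31 in the inhibitor comparison and 0.25 in the hairpin comparison. The spread over genes is not an error of the median, since genes of 1 array are not replicates.

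The controls themselves were apart, which bears on both comparisons. For pLKO.1 minus DMSO the median of the 21 genes was -0.17, with 18 below 0 beside 55.6% of expressed genes. None was 1.5-fold apart, beside 0.603% higher and 0.434% lower, and 4 were lower by at least 0.32, beside 5.05%, with none higher, beside 4.03%. Expressed genes 2-fold apart between the controls made up 0.0841% higher and 0.014% lower, with none of the 21 among them. Set against the other control the medians were therefore larger, at 0.20 for Senexin B minus pLKO.1 and -0.40 for shCDK8 minus DMSO. In the former 4 genes were at least 1.5-fold higher, beside 2.59% of expressed genes, and 0 lower, beside 1.86%. Of these 4, Cth and Slc7a11 were at least 2-fold higher, beside 0.708%. In the latter 0 were at least 1.5-fold higher, beside 2.21%, and 3 were lower, beside 2.28%, namely Mthfd2, Slc7a5 and Psat1. Solvent and vector cannot be told apart as sources of the gap between the controls.

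The transcription regulators were all lower in shCDK8 than in either control. Atf4, the central factor, stood at 10.40 with DMSO, 10.52 with Senexin B, 10.38 in pLKO.1 and 10.13 in shCDK8. Atf5, a related factor that is also translated under stress, stood at 9.71, 9.63, 9.77 and 9.26 on the same arrays in that order. The hairpin array was thus the low one for both, by 0.25 for Atf4 and 0.51, or 1.43-fold, for Atf5 against the vector line. Nupr1, a small chromatin-associated stress protein, stood at 9.75 with DMSO, 9.86 with Senexin B, 9.69 in pLKO.1 and 9.20 in shCDK8, a difference from pLKO.1 of -0.49. Cebpg, a C/EBP protein that pairs with ATF4, was at -0.28 in the same comparison and at -0.10 with Senexin B against DMSO.

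Cebpb and Ddit3, which encode C/EBPβ and its relative CHOP, went different ways with the inhibitor. Cebpb stood at 8.63 with DMSO, 9.44 with Senexin B, 8.51 in pLKO.1 and 8.33 in shCDK8. Only the Senexin B array stood high, 1.75-fold above DMSO (0.81) and 0.93 above pLKO.1. Ddit3, which drives cell death under lasting stress, stood at 7.92 with DMSO, 7.59 with Senexin B, 8.14 in pLKO.1 and 7.65 in shCDK8. Both treated arrays lay under both controls for Ddit3, by 0.33 for Senexin B against DMSO and 0.49 for shCDK8 against pLKO.1, and the controls differed by 0.22.

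Of the feedback and effector genes Trib3 differed most in both comparisons. Trib3, a pseudokinase that restrains ATF4 and AKT, stood at 7.75 with DMSO, 8.09 with Senexin B, 7.64 in pLKO.1 and 7.35 in shCDK8, or 0.34 higher with the inhibitor and 0.29 lower in the hairpin line. Chac1, which breaks down glutathione, was at 0.08 and -0.11 in these comparisons, less than the difference of -0.27 between the controls. Ppp1r15a, also named GADD34, brings a phosphatase to eIF2 and so ends the response. It was at -0.06 with Senexin B and 0.00074 in shCDK8.

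Among the amino acid synthesis genes Cth had the largest difference of the 34 measured stress genes with Senexin B. Cth encodes cystathionine gamma-lyase, which makes cysteine, and stood at 7.00 with DMSO, 7.86 with Senexin B, 6.66 in pLKO.1 and 6.85 in shCDK8. It was 1.81-fold higher than with DMSO, above 99.0% of expressed genes and 1.20 higher than in pLKO.1. In shCDK8 it was 0.19 above pLKO.1 but 0.15 below DMSO, so its direction there depended on the control. Pck2, the mitochondrial enzyme that makes phosphoenolpyruvate, stood at 9.74, 10.11, 9.35 and 9.42 in the order DMSO, Senexin B, pLKO.1 and shCDK8. It was 0.37 higher with Senexin B, and in shCDK8 it also changed sides, at 0.07 against pLKO.1 and -0.32 against DMSO.

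Asns, the asparagine synthetase gene and a classical ATF4 target, stood at 10.92 with DMSO, 11.15 with Senexin B, 10.75 in pLKO.1 and 10.34 in shCDK8. It was 0.23 higher with the inhibitor and 1.32-fold lower in the hairpin line (-0.41). The genes of serine synthesis were not alike. Psat1, its second enzyme, stood at 11.29, 11.13, 11.05 and 10.68 on the arrays in the order DMSO, Senexin B, pLKO.1 and shCDK8, with shCDK8 -0.37 from pLKO.1. Psph, its last enzyme, was at -0.32 there, just short of the lower threshold, while Phgdh, which opens the pathway, stayed between 10.00 and 10.09 on all 4 arrays. Aldh18a1, which starts proline synthesis, was 0.17 higher with Senexin B and at -0.24 in shCDK8, with -0.31 between the controls.

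The mitochondrial folate genes use the serine made by that pathway. Mthfd2 stood at 10.35 with DMSO, 10.26 with Senexin B, 9.94 in pLKO.1 and 9.43 in shCDK8. The hairpin array was the lowest, by 0.51 against pLKO.1 and by 0.93 against DMSO, but pLKO.1 was itself 0.41 under DMSO. Shmt2, which passes the carbon of serine to folate, was at 0.024 with Senexin B and -0.21 in shCDK8.

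The amino acid transporters were not alike either. Slc7a5, which takes up leucine and other large neutral amino acids, stood at 11.24 with DMSO, 11.15 with Senexin B, 11.10 in pLKO.1 and 10.57 in shCDK8, with the hairpin line 1.45-fold below the vector line (-0.53). Slc3a2, the heavy chain that carries both Slc7a5 and Slc7a11 to the membrane, was at -0.22 there and at -0.08 with the inhibitor. Slc7a11, the cystine importer, stood at 9.55 with DMSO, 10.19 with Senexin B, 9.02 in pLKO.1 and 9.43 in shCDK8. It was 1.56-fold higher with Senexin B than with DMSO (0.64) and 1.17 higher than in pLKO.1. Against pLKO.1 the hairpin line was 0.40 higher and against DMSO it was at -0.13, while the controls differed by 0.53. A second, dimmer probe set of Slc7a11 stood at 5.20, 5.74, 5.41 and 6.38 on the arrays in the same order, with differences of 0.55 in the inhibitor comparison and 0.98 in the hairpin comparison. It lay under the expression limit on all arrays but shCDK8.

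The 3 genes past 1.5-fold with Senexin B were past it against both controls, as were 1.44% of expressed genes. Cth and Slc7a11 supply cysteine, by synthesis and by import of cystine, and Cebpb encodes a transcription factor. Slc7a5, Slc3a2, Shmt2, Mthfd2, Phgdh, Psat1 and Psph each differed by less than 0.2 from DMSO on the inhibitor array. Against pLKO.1, however, Mthfd2 was at 0.32 and Shmt2 at 0.20. Of the other integrated stress response genes Pck2 (0.37), Trib3 (0.34), Asns (0.23) and Ddit3 (-0.33) differed from DMSO by more than 0.2.

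In shCDK8 against the vector line, the median over the 13 measured unfolded protein response genes was -0.016, with 6 above 0, beside 50.8% of expressed genes, and 7 below, beside 49.1%. None was 1.5-fold apart, beside 1.67% higher and 1.85% lower, so these counts lay near the background. Herpud1, a membrane protein of the degradation complex, alone passed the lower threshold, 1 of 13 lower beside 7.68%. It stood at 10.42 with DMSO, 10.59 with Senexin B, 10.31 in pLKO.1 and 9.88 in shCDK8. The hairpin array was 1.35-fold under pLKO.1 (-0.43) and 0.54 under DMSO. Herpud1 is the unfolded protein response gene whose promoter holds the CARE core shown above, and a link of the core with this difference was not tested.

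**Figure D2:**
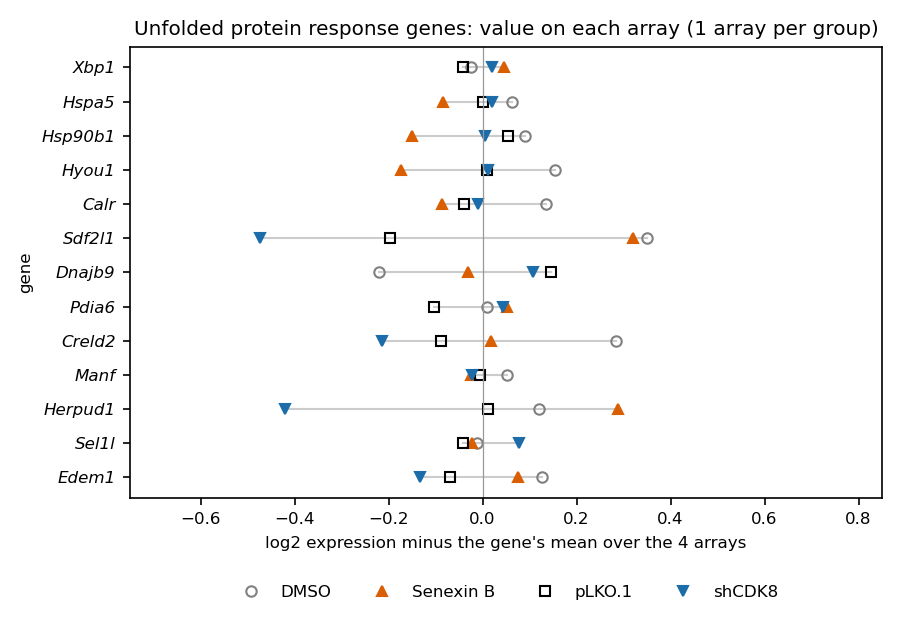
Each of the 13 unfolded protein response genes on the 4 arrays, on the same horizontal scale as for the integrated stress response. The axis is the log2 expression minus the mean of the gene over the 4 arrays, and each symbol is 1 array. Most genes span less than 0.4, and Sdf2l1 (0.82) and Herpud1 (0.71) span the most.

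With Senexin B several chaperone genes were slightly lower than with DMSO. Hyou1, a large relative of the HSP70 proteins, stood at 11.46 with DMSO, 11.13 with Senexin B, 11.31 in pLKO.1 and 11.32 in shCDK8. Hsp90b1, the HSP90 of the endoplasmic reticulum, stood at 13.26, 13.02, 13.23 and 13.18 on these arrays in that order. Senexin B was the lowest of the 4 arrays for both, and also for Hspa5, Calr and Manf, 5 of the 13 genes beside 31.2% of expressed genes. Their differences from DMSO were -0.33 for Hyou1, -0.24 for Hsp90b1, -0.22 for Calr, -0.15 for Hspa5 and -0.076 for Manf. From pLKO.1 they were -0.18, -0.20, -0.045, -0.086 and -0.019 in the same order. Hspa5 encodes BiP, the main chaperone and stress gauge of the compartment, Calr encodes the lectin chaperone calreticulin and Manf a secreted survival factor. Over the 13 genes the median was -0.051, with 9 below 0 beside 55.1% of expressed genes. Against pLKO.1 the median turned to 0.020, with 7 above 0 and 6 below, beside 49.8% and 50.2%, and for pLKO.1 minus DMSO it was -0.11, with 12 below 0 beside 55.6%. Against DMSO Hyou1 alone passed the lower threshold with Senexin B, 1 of 13 beside 8.99%. This count and that of genes lowest on the Senexin B array lay near the background.

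Other genes of the group differed mainly between the controls. Sdf2l1, a partner of the chaperone complex, stood at 10.04 with DMSO, 10.01 with Senexin B, 9.49 in pLKO.1 and 9.21 in shCDK8. Both lines with the vector lay under both cultures without it, with differences of -0.55 for pLKO.1 against DMSO and -0.28 for shCDK8 against pLKO.1. Creld2, a disulphide-handling protein, stood at 11.36 with DMSO, 11.09 with Senexin B, 10.98 in pLKO.1 and 10.86 in shCDK8, with the DMSO array the high one. Dnajb9, a co-chaperone of BiP and an IRE1 feedback factor, stood at 8.64, 8.83, 9.01 and 8.97 in the same order, with DMSO the low one.

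The regulator Xbp1 was nearly flat, at 10.63 with DMSO, 10.70 with Senexin B, 10.61 in pLKO.1 and 10.67 in shCDK8. The isomerase gene Pdia6 was at 0.04 with Senexin B and 0.15 in shCDK8. Sel1l, the scaffold of the degradation complex, was at -0.0099 and 0.12, and Edem1, which draws misfolded glycoproteins into it, at -0.051 and -0.065. A second probe set of Edem1, under the expression limit on all 4 arrays, was at -0.18 and 0.52.

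**Figure D3:**
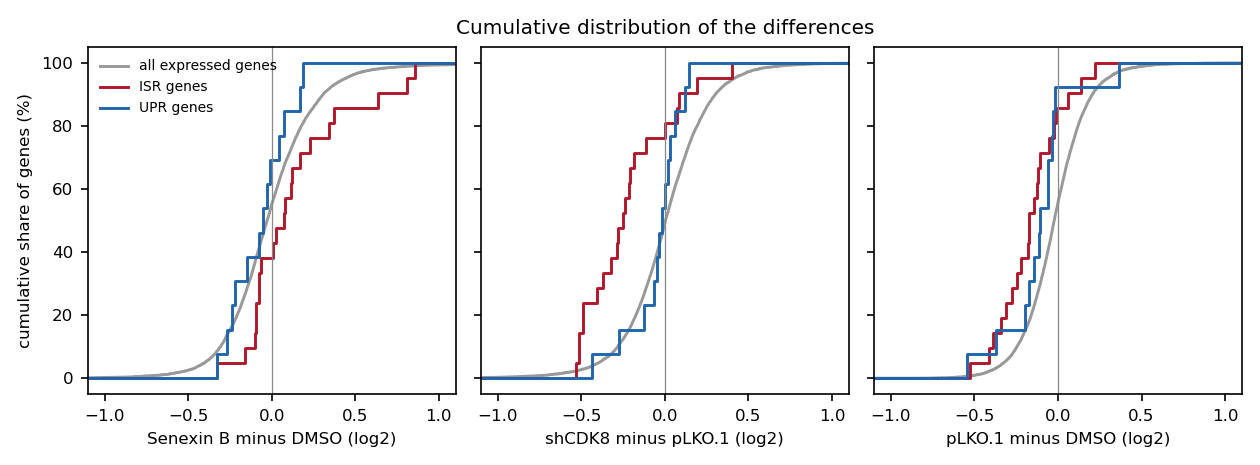
Cumulative share of genes (vertical axis, %) against the log2 difference (horizontal axis) for 21 integrated stress response (ISR) genes, 13 unfolded protein response (UPR) genes and 14272 expressed genes. In shCDK8 minus pLKO.1 the ISR curve lies left of the others over most of its length, with a median of -0.25, and the ISR curve also lies left of all genes in pLKO.1 minus DMSO, with a median of -0.17.

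The inhibitor and the hairpin could be set side by side because their comparisons share no array. Of the 21 integrated stress response genes 9 were above DMSO with Senexin B and below pLKO.1 in shCDK8, beside 20.7% of expressed genes. These included Atf4, Nupr1, Trib3, Asns and Cebpb. A further 7 were below in both, beside 28.4%, among them Ddit3, Atf5, Mthfd2 and Slc7a5. Of these 7, Mthfd2 (0.32), Slc3a2 (0.15), Psat1 (0.08), Cebpg (0.07) and Slc7a5 (0.05) were above 0 when Senexin B was set against pLKO.1, so their direction with the inhibitor depended on the control. Slc7a11, Cth, Pck2 and Phgdh were above in both, beside 24.1%. Set against DMSO, shCDK8 was at -0.13 for Slc7a11, -0.15 for Cth, -0.32 for Pck2 and 0.08 for Phgdh. The direction of Slc7a11, Cth and Pck2 in the hairpin line thus depended on the control. Of the 13 unfolded protein response genes 2 were above DMSO and below pLKO.1, namely Herpud1 and Dnajb9, beside 20.7% of expressed genes. A further 5 were below in both, beside 28.4%, and 2 above in both, beside 24.1%. The other 4 were below DMSO with Senexin B and above pLKO.1 in shCDK8, beside 26.7%. Whether inhibitor and hairpin differ in their effect was not tested, since each rests on 1 pair of arrays.

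**Figure D4:**
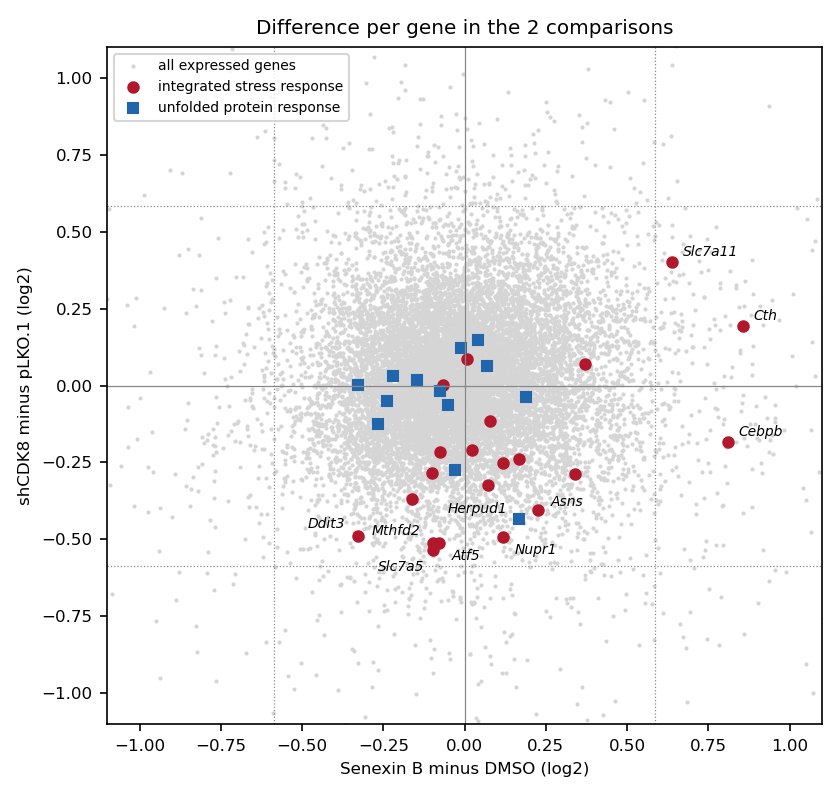
Log2 difference per gene, with Senexin B minus DMSO on the horizontal and shCDK8 minus pLKO.1 on the vertical axis. Shown are expressed genes in grey, integrated stress response genes as red circles and unfolded protein response genes as blue squares. Dotted lines mark 1.5-fold, genes past 0.4 in either comparison are named, and some grey points lie outside the axes. Cth (0.86), Cebpb (0.81) and Slc7a11 (0.64) lie past the line for the inhibitor and no listed gene passes it for the hairpin.

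The promoter motifs were set beside these values as a description. The 6 integrated stress response genes with a CARE core, Asns, Chac1, Nupr1, Pck2, Slc7a11 and Trib3, were all above DMSO with Senexin B, from 0.08 to 0.64 with a median of 0.28. All 6 were also highest on the Senexin B array, as were 26.9% of expressed genes. Of the 13 with a window and no CARE core 6 were above DMSO, with a median of -0.065. Cth and Slc7a5 had no window and are in neither group. They were at 0.86, the largest difference of all, and at -0.097. Against pLKO.1 all 6 genes with the core were above 0, with a median of 0.43, and so were 10 of the 13 without it, with a median of 0.14, so the direction of the latter turned with the control. In shCDK8 minus pLKO.1 the medians were -0.20 with the core and -0.25 without it. Across the array the shares lay nearer together, and a link with the core was not tested. Among 320 expressed genes with a CARE core 48.1% were above DMSO with Senexin B, with a median of -0.0053. Among 11151 expressed genes with a window 43.6% were, with a median of -0.0345. The 6 unfolded protein response genes with either form of ERSE had a median of -0.18 with Senexin B against DMSO and of -0.016 in the hairpin comparison. Against pLKO.1 the Senexin B median of these 6 turned to 0.031, with 3 above 0 and 3 below.

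Other genes of both pathways were read from a list of 68, of which 62 were measured and expressed. Of these 32 belong to the integrated stress response, with a median of -0.016 with Senexin B and of -0.16 in shCDK8, where 23 of them were below 0, beside 49.1% of expressed genes. Among the 16 further ATF4-linked targets 13 had less signal in shCDK8 than in the vector line, beside the same 49.1%, with a median of -0.24. Aldh1l2, a mitochondrial folate enzyme, was the 1 gene of the 62 at least 1.5-fold lower in shCDK8, beside 1.85% of expressed genes. It stood at 8.07 with DMSO, 8.21 with Senexin B, 7.76 in pLKO.1 and 7.10 in shCDK8. Vldlr, a lipoprotein receptor, was the 1 gene of the 62 at least 1.5-fold higher with Senexin B, beside 2.35%. It stood at 9.76, 10.61, 9.73 and 9.83 in the same order. Both counts lay near the background. The 10 tRNA synthetases, which charge tRNAs with amino acids, were below 0 in 9 cases in shCDK8, again beside 49.1%, with a median of -0.18. They had a median of -0.052 with Senexin B. The controls were apart here too. For pLKO.1 minus DMSO 28 of the 32 genes were below 0, beside 55.6% of expressed genes, with a median of -0.10. So were 14 of the 16 targets, with a median of -0.15, and 9 of the 10 synthetases, with a median of -0.08.

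The 30 further unfolded protein response genes had medians of -0.086 with Senexin B and 0.024 in shCDK8. Dnajc3, a BiP co-chaperone that also restrains eIF2 kinases, was 1.63-fold higher in shCDK8. It was the 1 gene of the 62 at least 1.5-fold higher there, beside 1.67% of expressed genes, so this count too lay near the background. Dnajc3 stood at 11.02 with DMSO, 10.67 with Senexin B, 10.86 in pLKO.1 and 11.56 in shCDK8. Of the sensors Atf6 stood at 10.89, 10.49, 10.96 and 11.26 on these arrays in that order, low with Senexin B and high in shCDK8. Ern1, which encodes IRE1, was at -0.29 with Senexin B and -0.0064 in shCDK8, with 0.48 between the controls, and was at -0.77 for Senexin B against pLKO.1. Eif2ak3, which encodes PERK, was at 0.16 and 0.25, and Eif2ak4, the amino acid sensor GCN2, at -0.22 and 0.12. No sensor or kinase was 1.5-fold apart in either comparison.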

How the data were processed

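Biotin-labelled RNA of 4 CT26 cultures was hybridised, per the labels. The authors deposited a log2 value for each probe set and array, and the submitters' processing notes name RMA and Affymetrix Expression Console. RMA equalizes array distributions and so removes a shift common to all genes. No source used here gives versions, settings or a genome build. The array medians lay between 5.99 and 6.04.

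Of 41345 probe sets 23521 had 1 symbol in the platform annotation, 1814 several and 16010 none, and those with 1 were used. Differences of log2 values, counts and medians were computed with Python 3.11.15, pandas 2.3.3 and numpy 2.4.6. With 1 array per group there was no residual spread and no p-value, and the number of arrays limits the precision. The computation was tested on simulated data with planted shifts larger than any difference of the listed genes. It therefore checks the code and not how well differences as small as theirs are found. Shares of all 14272 expressed genes are given as background. The genes named are all 35 listed, other pathway genes 1.5-fold apart in either comparison, 4 sensors or kinases, Cdk8 and markers. Further names, in lists of counts, were chosen after their values were seen. Genes, lists and thresholds were chosen with earlier results of these data known. Promoters came from RefSeq (GRCm38.p6). Alternatives covered filters, scaling, probe sets, floor, threshold, summary and control array.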

Additional observations from a re-analysis of the deposited data

How the results depend on the processing

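The medians and counts of both gene groups and of the other pathway genes stayed within 0.1 or a factor of 1.5 under no filter, a filter at the 60th percentile or on the mean, repeated quantile normalization, a lowess trend removed (span 0.3), genes with a single probe set and a floor at the limit, and the medians also with the mean in their place. Averaging the probe sets of a gene put 1 integrated stress response gene, Slc7a11, 1.5-fold higher in shCDK8 (0.69), where the probe set kept gave none, and moved Edem1 to 0.23. The other control array moved 60 of 86 single-gene differences by at least 0.1. With it the integrated stress response medians were 0.20 for Senexin B and -0.40 for shCDK8, the unfolded protein response median for Senexin B turned to 0.020, and in shCDK8 3 integrated stress response genes and 1 unfolded protein response gene were 1.5-fold lower. Of the other pathway genes 3 were then higher and 1 lower with Senexin B, and 0 higher and 3 lower in shCDK8. Beside these counts, 2.59% of expressed genes were higher and 1.86% lower with Senexin B, and 2.21% higher and 2.28% lower in shCDK8. At a threshold of 0.32 on the log2 scale the integrated stress response counts were 5 higher and 1 lower with Senexin B, 1 higher and 7 lower in shCDK8 and 4 lower between the controls. The unfolded protein response counts were 1 lower with Senexin B, 1 lower in shCDK8, and 1 higher and 2 lower between the controls. The other pathway counts were 3 higher and 6 lower, 3 higher and 8 lower, and 1 higher and 2 lower in these comparisons. Of all expressed genes 9.21% were higher and 8.99% lower with Senexin B, and 8.81% higher and 7.68% lower in shCDK8. Between the controls 4.03% were higher and 5.05% lower. At 2-fold all counts in these comparisons were 0. Against pLKO.1, however, Cth and Slc7a11 were at least 2-fold higher with Senexin B, beside 0.708% of expressed genes. The cause of the gap between the controls was not tested. No paired analysis was possible because each group has 1 array and the labels give no replicate numbers.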

Other observations

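Several amino acid transporters outside the list of 35 genes, named here after their values were seen, were also lowest on the shCDK8 array. Slc1a4, which carries alanine, serine and cysteine, stood at 8.91 with DMSO, 9.16 with Senexin B, 8.59 in pLKO.1 and 8.07 in shCDK8, a difference from pLKO.1 of -0.51. Slc1a5, the glutamine carrier, was at -0.31 in that comparison, Slc7a1, a carrier of cationic amino acids, at -0.30, and Slc38a2 at -0.29. Of the tRNA synthetases Nars was at -0.43, Iars at -0.42 and Tars at -0.40, while Sars was at 0.05. The translation repressor gene Eif4ebp1 was at -0.33 in shCDK8 and 0.01 with Senexin B. Ddit4, an inhibitor of mTOR signalling, was at 0.49 with Senexin B against DMSO and at -0.16 in shCDK8, and Gpt2, which links alanine to glutamate, was at 0.44 and -0.28. Sesn2 and Atf3 went the other way, at -0.37 and -0.18 with Senexin B and at 0.37 and 0.22 in shCDK8. With Vldlr (0.11) they were the 3 of the 16 further ATF4-linked targets above 0 in shCDK8 minus pLKO.1.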
